A study of Homo sapiens with 12 samples.

Results

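The genes described here govern the passage from G1 to S phase in HCC1806, a triple-negative breast cancer (TNBC) cell line, and their mRNA was followed upon MLK4 knock-down and doxorubicin treatment. The 10 genes were chosen by name, as the D-type cyclins CCND1, CCND2 and CCND3, the kinases CDK4 and CDK6, the CDK inhibitors CDKN1B, CDKN2B and CDKN2C, the retinoblastoma gene RB1 and cyclin A1 (CCNA1), and those with a row in the table of processed values were kept. Of these 10 genes, 8 were found among the 17013 genes of the table. CCND2 and CDKN2B have no row in the table used here, where no gene has a highest group mean under 10.7 normalized reads. The other 8 genes exceed that mean in all 4 groups. CCNA1 was included with its low value in vehicle-treated siMLK4 cells already known. Its comparisons are therefore described without a test. The other members, the lists and the tests were also chosen with earlier results of these data known, which the p-values do not take into account.

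D-type cyclins bind CDK4 or CDK6, and the active complexes phosphorylate the retinoblastoma protein, which then releases E2F transcription factors. E2F factors switch on the genes of DNA replication, and cyclin E with CDK2 carries the phosphorylation further. The inhibitors encoded by CDKN2B and CDKN2C (p15 and p18) bind CDK4 and CDK6 alone, whereas p27, the product of CDKN1B, binds assembled cyclin and CDK complexes. Cyclin A1 is best known from male germ cells, where it partners CDK2, and it is also expressed in some tumours. CCND1 is a target of mitogenic signalling through ERK and is often overexpressed in breast cancer.

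Before treatment, cells received either a non-targeting siRNA (siNT) or a pool of 4 siRNAs against MLK4 (siMLK4), the kinase encoded by MAP3K21. After 24 h they received 1 μM doxorubicin, an anthracycline that poisons topoisomerase II, for a further 24 h, or vehicle. These control cells are DMSO-treated in the sample labels, whose short names mark them as time 0, and untreated in the methods, while other text of the study calls them vehicle-treated, so that their treatment and time of harvest are uncertain in each comparison with the drug. Each of the 4 groups holds 3 libraries of poly(A) RNA, and the methods state that cells of 1 line were transfected in triplicate without naming separate days or passages, so that p-values measure the spread between these transfections. The knock-down was transient and incomplete, the cells are 1 cell line, and a pool cannot show which siRNA acted. Libraries held 16759025 to 19302248 reads on the genes of the table. The sample descriptions of siMLK4 doxorubicin replicates 2 and 3 end in the same tag, but the table holds different values for them, with 19302248 and 18044286 reads.

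The siRNAs are shown because every comparison with siMLK4 cells rests on them. Each is printed as the strand with the MAP3K21 sequence, which it matches over 19 bases, and the capitals mark the 7 bases that pair with the seed (bases 2 to 8) of the opposite, guide strand.
siMLK4_1: ggaaagaugcuCAGAGAGauu
siMLK4_2: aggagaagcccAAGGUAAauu
siMLK4_3: agaagaaacgaGAGGGAAuuu
siMLK4_4: agaacagauugCAAAGAAauu
The capital letters of these siRNAs occur in the annotated 3′UTRs of 27.5%, 15.9%, 24.0% and 30.5% of 13587 genes, respectively, and at least 1 of them occurs in 58.2% of these genes. Among the 8 genes described here, 5 carry at least 1 such match. CDK4 and CDK6 match siMLK4_2 and siMLK4_4, CDKN1B and RB1 match siMLK4_4, and CCND3 matches siMLK4_3. CCND1, CDKN2C and CCNA1 carry none, over 3′UTRs of at most 3192, 364 and 205 bases. A match is a description of letters, and its part in any result below was not tested.

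MAP3K21 itself was read first, to test the siRNA labels. It had a mean of 632 ± 68 normalized reads (SD, n = 3) in siNT vehicle cells and 95.5 ± 7.3 in siMLK4 vehicle cells, 15.1% of the siNT mean. With doxorubicin the means were 795 ± 53 and 115 ± 22 normalized reads, a remainder of 14.5%. Normalized reads are reads divided by the size factor of the library. Medians over the 12 libraries of the 4 epithelial markers ran from 718 normalized reads per kilobase of exon for CDH1 to 4409 for EPCAM. Those of the 4 basal markers ran from 344 for TP63 to 3346 for KRT5. Single libraries ranged from 135 to 881 for TP63 and from 373 to 3074 for KRT14. ESR1 and PGR, the genes of hormone receptors that are absent from triple-negative cancers, had medians of 4.73 and 0.247 per kilobase. Single libraries held 36.0 to 148 normalized reads of ESR1. Of 4 markers of other cells, PTPRC of leukocytes had a median of 0.639 and COL1A1 of fibroblasts 36.9 per kilobase, and PECAM1 and CD68 have no row in the table used here.

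Among the genes chosen by name, the CDK inhibitors with a row were CDKN2C and CDKN1B, and CDKN2C moved more in each comparison. It encodes p18 and lies on chromosome 1 of GRCh38 from 50960745 to 50974634 on the + strand (ENSG00000123080). In siNT cells its normalized reads were 179.7, 204.5 and 162.8 with vehicle and 879.5, 717.7 and 474.5 with doxorubicin. In siMLK4 cells they were 399.8, 394.6 and 462.7 with vehicle and 1575.5, 1881.2 and 1240.2 with doxorubicin. The groups did not overlap in any of the 4 comparisons, and both the drug and the knock-down went with higher values. A log2 fold change is the difference between group means of the deposited, variance-stabilized values, and a gene passed when its limma p-value, with Benjamini-Hochberg adjustment for the 17013 genes, was under 0.01 and its log2 fold change exceeded 0.75 in size. CDKN2C rose upon doxorubicin by 1.64 in siNT cells (SE 0.19, adjusted p = 6.2e-06) and by 1.76 in siMLK4 cells (SE 0.19, adjusted p = 3.3e-06), which are 3.79-fold and 3.74-fold in mean normalized reads. It rose upon MLK4 knock-down by 1.02 in vehicle (SE 0.19, adjusted p = 0.0013) and by 1.14 with doxorubicin (SE 0.19, adjusted p = 5.8e-04), 2.30-fold and 2.27-fold in mean normalized reads. The responses to the drug with the different siRNAs differed by 0.13 (SE 0.26), a difference that did not pass (adjusted p = 0.89). It ran from −0.10 to 0.31 when single libraries were left out. CDKN2C thus went from a mean of 182 normalized reads without drug and knock-down to 1566 with both. It passed in all 4 comparisons under each alternative setting and without each single library.

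CDKN1B, which encodes p27, lies on chromosome 12 from 12685498 to 12722369 on the + strand (ENSG00000111276) and was likewise lowest in siNT vehicle and highest in siMLK4 doxorubicin cells, with smaller steps. Its normalized reads were 1592.3, 1197.0 and 1465.0 in siNT vehicle, 2108.7, 2183.5 and 2005.5 in siNT doxorubicin, 2058.9, 2030.7 and 2302.8 in siMLK4 vehicle and 3477.5, 3329.6 and 3361.4 in siMLK4 doxorubicin libraries. All libraries with a drug or a knock-down lay above all siNT vehicle libraries, and the libraries with both lay above every other library. It differed by 0.56 on the log2 scale (SE 0.11, adjusted p = 6.4e-04) for doxorubicin in siNT cells and 0.66 (SE 0.11, adjusted p = 1.6e-04) in siMLK4 cells. For siMLK4 against siNT it was 0.58 (SE 0.11, adjusted p = 0.0017) in vehicle and 0.68 (SE 0.11, adjusted p = 5.6e-04) with doxorubicin. CDKN1B was thus under the p threshold but also under the fold threshold in each comparison. For the knock-down in vehicle its adjusted p was 0.026 when only the groups compared entered the fit. When library totals replaced the size factors, 3 of the 4 passed, at 0.79, 0.84 and 0.77, the exception being siMLK4 against siNT in vehicle. That scaling moved the median of all genes upwards by 0.18 for doxorubicin in siNT cells and by 0.14 in siMLK4 cells. For siMLK4 against siNT the shift was 0.10 in vehicle and 0.06 with doxorubicin.

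**Figure D1:**
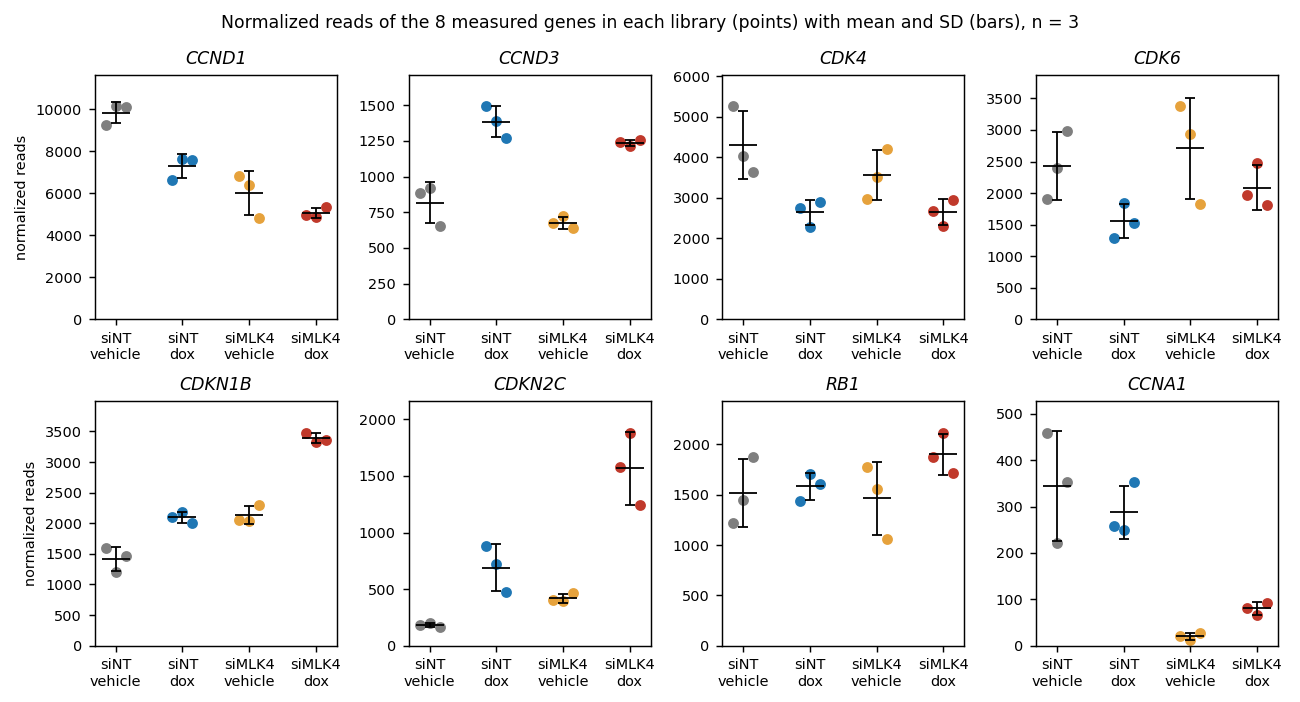
Normalized reads (linear axes from 0) of the 8 measured genes in each of the 12 libraries (points), with the mean and SD of the 3 libraries of each group (black bars). CDKN2C and CDKN1B are lowest in siNT vehicle and highest in siMLK4 doxorubicin cells, CCND1 runs the other way, and CCNA1 is low in both siMLK4 groups.

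Promoter sequence is shown for CDKN2C and CCNA1, the genes that moved most and in opposite directions upon MLK4 knock-down. RefSeq windows of 250 bases before to 50 bases after a start site (GRCh38.p14) were matched for 7 of the 8 measured genes, as 12 windows. CCND1 is missing from them. The words searched, on both strands, were those of E2F (TTTCCCGC, TTTCGCGC, TTTGCCGC and TTTGGCGC), AP-1 (TGANTCA), the cyclic AMP response element (TGACGTCA) and the GC box (GGGCGG). The capitals below mark GC boxes.
CDKN2C, chr1:50968456-50968755, + strand: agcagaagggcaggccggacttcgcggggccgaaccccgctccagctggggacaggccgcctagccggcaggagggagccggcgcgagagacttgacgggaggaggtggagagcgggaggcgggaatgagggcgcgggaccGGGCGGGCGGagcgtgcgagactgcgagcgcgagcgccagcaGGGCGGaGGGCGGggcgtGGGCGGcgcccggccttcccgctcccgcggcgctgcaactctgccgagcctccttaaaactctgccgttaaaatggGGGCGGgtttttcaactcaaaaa
CCNA1, chr13:36431705-36432004, + strand: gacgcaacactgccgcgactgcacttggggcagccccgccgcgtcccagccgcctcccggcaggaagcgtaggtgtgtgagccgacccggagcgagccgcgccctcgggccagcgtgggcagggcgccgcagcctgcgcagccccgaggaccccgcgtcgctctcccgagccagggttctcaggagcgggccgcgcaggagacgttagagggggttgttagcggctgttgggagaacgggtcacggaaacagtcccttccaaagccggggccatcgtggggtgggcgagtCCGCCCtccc
This CDKN2C window, 1 of 3 for the gene and at a start site downstream of its annotated 5′ end, holds 6 GC boxes, of which the first pair overlaps. The CDKN2C window at the annotated 5′ end holds 0 and the remaining window 1. The CCNA1 window holds 1, on the opposite strand. It begins at 36431705, downstream of the annotated 5′ end of the gene at 36431520. GC boxes occur in 45.0% of 35116 such windows, E2F words in 3.31%, AP-1 words in 7.71% and the cyclic AMP response element in 1.85%. Among the 12 windows, the single window of RB1, which lies inside the gene and not at its annotated 5′ end, held an AP-1 word, and no window held an E2F word or the cyclic AMP response element.

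CCND1, which encodes cyclin D1, had more mRNA per kilobase than CCND3, and its level was lower upon knock-down. The gene lies on chromosome 11 from 69641156 to 69654474 on the + strand (ENSG00000110092). It had 9247.1, 10133.7 and 10109.2 normalized reads in siNT vehicle, 6628.7, 7639.7 and 7580.8 in siNT doxorubicin, 6832.1, 6400.9 and 4835.8 in siMLK4 vehicle and 4982.6, 4851.3 and 5346.4 in siMLK4 doxorubicin libraries. The siMLK4 libraries lay below the siNT libraries of the same treatment without overlap. The log2 fold change for siMLK4 against siNT was −0.72 in vehicle (SE 0.13, adjusted p = 0.0010) and −0.52 with doxorubicin (SE 0.13, adjusted p = 0.0086), leaving 61.3% and 69.5% of the siNT means. Both were under the p threshold and short of the fold threshold. The value in vehicle passed, at −0.76, −0.81 and −0.77, without siNT vehicle replicate 1, siMLK4 vehicle replicate 1 or siMLK4 vehicle replicate 2, respectively. It was −0.57 without siMLK4 vehicle replicate 3, the lowest library of that group, and −0.57 with library totals, and its adjusted p was 0.021 when only the groups compared entered the fit. With doxorubicin the adjusted p reached 0.039 when single libraries were left out. Upon doxorubicin the log2 fold change of CCND1 was −0.43 in siNT cells (SE 0.13, adjusted p = 0.0097), with no overlap of the groups, and −0.23 in siMLK4 cells (SE 0.13, adjusted p = 0.13), where siMLK4 vehicle replicate 3 alone overlapped the drug libraries. The siNT value kept its sign without each library, with an adjusted p of up to 0.049. The siMLK4 value was −0.38 (adjusted p = 0.0076) without siMLK4 vehicle replicate 3 and −0.14 without replicate 1. With library totals in place of the size factors these values were −0.19 (adjusted p = 0.23) and −0.05 (adjusted p = 0.76), and that for the knock-down with doxorubicin was −0.43 (adjusted p = 0.026).

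CCND3, which encodes cyclin D3, moved the other way upon doxorubicin. It lies on chromosome 6 from 41934934 to 42050357 on the − strand (ENSG00000112576). Its normalized reads were 884.2, 917.8 and 652.2 in siNT vehicle, 1491.3, 1392.6 and 1272.4 in siNT doxorubicin, 675.3, 721.4 and 637.9 in siMLK4 vehicle and 1241.4, 1214.9 and 1255.6 in siMLK4 doxorubicin libraries. All doxorubicin libraries lay above all vehicle libraries. CCND3 rose in siMLK4 cells by 0.82 (SE 0.12, adjusted p = 6.1e-05), 1.82-fold in mean normalized reads. In siNT cells the value was 0.74 (SE 0.12, adjusted p = 1.6e-04), 1.69-fold and just short of the fold threshold. It passed there with limma-voom and on log2(normalized reads + 1), at 0.77 each, with library totals, at 0.96, and without siNT vehicle replicate 1 (0.80), siNT vehicle replicate 2 (0.82) or siNT doxorubicin replicate 3 (0.79). It was 0.59 without siNT vehicle replicate 3 and 0.68 without siNT doxorubicin replicate 1. For siMLK4 against siNT the log2 fold changes were −0.24 in vehicle (SE 0.12, adjusted p = 0.17) and −0.15 with doxorubicin (SE 0.12, adjusted p = 0.39). The value in vehicle was −0.39 (adjusted p = 0.020) without siNT vehicle replicate 3 and −0.15 without siNT vehicle replicate 2. The value with doxorubicin was −0.10 without siNT doxorubicin replicate 1, and library totals gave −0.11 and −0.07.

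These movements shifted the make-up of the measured D-type cyclin mRNA. Set on a common scale, as normalized reads per kilobase of exon, CCND1 made up 93.6% ± 1.2 (SD, n = 3) of the sum of CCND1 and CCND3 in siNT vehicle, 86.3% ± 1.8 in siNT doxorubicin, 91.4% ± 1.1 in siMLK4 vehicle and 83.2% ± 0.5 in siMLK4 doxorubicin cells. This share differed by −7.70 percentage points between doxorubicin and vehicle within siRNAs and by −2.68 points between siMLK4 and siNT within treatments. Each had p = 0.005 in a two-sided exact permutation test over the 12 libraries, the smallest p that its 400 permutations can give. With the length of the longest transcript in place of all exons the differences were −12.9 and −4.47 points with the same p. CCND2 could not enter the sum.

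**Figure D2:**
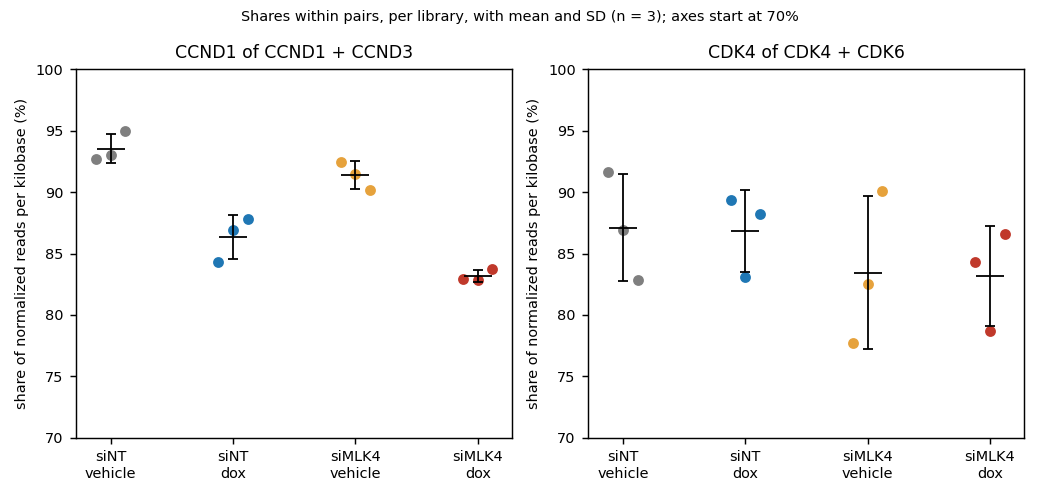
Share (%) of CCND1 in the summed normalized reads per kilobase of CCND1 and CCND3 (left), and of CDK4 in that of CDK4 and CDK6 (right), in each library (points), with group mean and SD, n = 3, and axes starting at 70%. The CCND1 share is lower in all doxorubicin libraries than in all vehicle libraries, while the CDK4 share overlaps among all groups.

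CDK4 and CDK6, the kinase partners of the D-type cyclins, had lower values with doxorubicin. CDK4 (chromosome 12, 57747727 to 57756013, − strand, ENSG00000135446) had 5251.2, 4018.8 and 3641.8 normalized reads in siNT vehicle and 2741.7, 2283.3 and 2890.6 in siNT doxorubicin libraries, without overlap. In siMLK4 cells it had 2974.7, 3505.3 and 4195.8 with vehicle and 2672.8, 2313.1 and 2952.2 with doxorubicin, which are separated by a narrow gap. The log2 fold change upon doxorubicin was −0.68 in siNT cells (SE 0.16, adjusted p = 0.0021) and −0.41 in siMLK4 cells (SE 0.16, adjusted p = 0.037), neither past both thresholds. When replicate 3 of siNT vehicle or of siNT doxorubicin was left out, the former passed at −0.79 and −0.75, respectively. It was −0.53 when replicate 1 of siNT vehicle was left out and −0.59 (adjusted p = 0.014) when replicate 2 of siNT doxorubicin was. With library totals the values were −0.45 (adjusted p = 0.020) and −0.23 (adjusted p = 0.20). For siMLK4 against siNT the values of CDK4 were −0.27 in vehicle (SE 0.16, adjusted p = 0.24) and 0.00 with doxorubicin (SE 0.16, adjusted p = 0.99). With single libraries left out they ranged from −0.39 to −0.12 and from −0.09 to 0.10, the former at −0.12 without siNT vehicle replicate 1.

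CDK6 (chromosome 7, 92604921 to 92836573, − strand, ENSG00000105810) varied more among libraries of 1 group. It had 1904.6, 2395.1 and 2985.0 normalized reads in siNT vehicle, 1294.7, 1842.5 and 1531.0 in siNT doxorubicin, 3371.5, 2938.4 and 1820.6 in siMLK4 vehicle and 1970.7, 2480.7 and 1805.4 in siMLK4 doxorubicin libraries. The drug groups were separated in siNT cells and overlapped in siMLK4 cells, with log2 fold changes of −0.62 (SE 0.22, adjusted p = 0.025) and −0.34 (SE 0.22, adjusted p = 0.19). The former passed without siNT vehicle replicate 1, at −0.78, was −0.46 (adjusted p = 0.11) without siNT vehicle replicate 3 and −0.49 (adjusted p = 0.10) without siNT doxorubicin replicate 1, and was −0.38 with library totals (adjusted p = 0.16), where the latter was −0.15. The overlap in siMLK4 cells came from siMLK4 vehicle replicate 3, and the value there was −0.59 (adjusted p = 0.015) without that library and −0.16 without siMLK4 vehicle replicate 1. For siMLK4 against siNT the values were 0.13 (SE 0.22, adjusted p = 0.70) in vehicle and 0.41 (SE 0.22, adjusted p = 0.18) with doxorubicin. The value in vehicle changed sign, to −0.03 and −0.04, without siNT vehicle replicate 1 or siMLK4 vehicle replicate 1, and was 0.39 without siMLK4 vehicle replicate 3. CDK4 made up 83.2% to 87.1% of the summed CDK4 and CDK6 reads per kilobase in the group means. Its share differed by −3.67 percentage points between siMLK4 and siNT cells (exact permutation p = 0.175) and by −0.26 points between doxorubicin and vehicle (exact permutation p = 0.92).

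RB1, the substrate of these kinases and a tumour suppressor often lost in basal-like breast cancer, was transcribed in every group. It lies on chromosome 13 from 48303744 to 48599436 on the + strand (ENSG00000139687), and its mean normalized reads were 1516 ± 334 (SD, n = 3) in siNT vehicle, 1582 ± 137 in siNT doxorubicin, 1465 ± 364 in siMLK4 vehicle and 1902 ± 203 in siMLK4 doxorubicin cells. The libraries ranged from 1063.8 to 2115.5. None of its 4 fold changes passed. The largest was 0.39 for doxorubicin in siMLK4 cells (SE 0.18, adjusted p = 0.074), which was 0.57 with library totals (adjusted p = 0.017) and 0.18 without siMLK4 vehicle replicate 3 (adjusted p = 0.34).

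CCNA1 stood apart from the other genes. It lies on chromosome 13 from 36431520 to 36442870 on the + strand (ENSG00000133101). Its normalized reads were 459.1, 221.1 and 353.6 in siNT vehicle and 257.5, 250.4 and 353.8 in siNT doxorubicin libraries, groups that overlap. In siMLK4 cells it had 21.04, 11.96 and 27.03 with vehicle and 82.3, 65.9 and 92.5 with doxorubicin, so that each siMLK4 library was below each siNT library. In vehicle, siMLK4 cells kept 5.81% of the mean in siNT cells, 17.2-fold less, and the log2 fold change of −2.64 was the third lowest among the 17013 genes. Values of low genes are compressed on the deposited scale. On log2(normalized reads + 1) the same difference was −4.05 and with limma-voom it was −4.09. With doxorubicin, in libraries that do not enter that difference, siMLK4 cells were at 27.9% of the siNT mean of CCNA1, or 3.58-fold lower. The log2 fold change was −1.39 (SE 0.20) and ran from −1.47 to −1.25 when single libraries were left out. It was −1.82 on log2(normalized reads + 1) and −1.83 with limma-voom. CCNA1 was included with its low value upon these siRNAs already known, so that this difference is a description too.

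The difference of CCNA1 between doxorubicin and vehicle was −0.19 on the log2 scale in siNT cells (0.01 when scaled by library totals). It was −0.44 without siNT vehicle replicate 2 and 0.01 without siNT vehicle replicate 1. In siMLK4 cells it was 1.05, where mean normalized reads were 4.01-fold higher, so that the responses differed by 1.25 (SE 0.29). On log2(normalized reads + 1) the value in siMLK4 cells was 2.01 and the difference between the responses 2.23, and with limma-voom they were 2.04 and 2.25. These values share the vehicle libraries through which CCNA1 was chosen and are given as a description. In this contrast of the responses, 0.276% of all genes passed with limma. Of the other 7 genes 0 passed with limma, limma-voom or any other setting, and 0 had an unadjusted p under 0.05, beside 2469 of all 17013 genes.

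Counted over the 7 genes other than CCNA1, doxorubicin in siNT cells gave 1 that rose (CDKN2C) and 0 that fell, against 12.1% of all genes that rose and 10.6% that fell. In siMLK4 cells 2 rose (CDKN2C and CCND3) and 0 fell, against 12.6% and 10.6%. The log2 fold changes of the 7 had a median of 0.08 in siNT and 0.39 in siMLK4 cells, where the medians of all genes were 0.00 and 0.02. For siMLK4 against siNT in vehicle, 1 of the 7 rose (CDKN2C) and 0 fell, against 2.51% and 3.14% of all genes. With doxorubicin, 1 of the 7 rose (CDKN2C) and 0 fell, against 2.66% and 2.93%. CCNA1 was lower there, but it was included with its low value in siMLK4 cells known and is not counted. The median of the 7 genes was −0.06 in vehicle, and with doxorubicin the middle of the 7 values was that of RB1, 0.26. The medians of all genes were 0.01 and 0.02. The comparisons share libraries, so that their counts are not independent of each other. Scaling by library totals raised the part of called genes that were higher from 53.4% to 72.3% for doxorubicin in siNT cells, from 54.4% to 69.3% in siMLK4 cells, from 44.4% to 64.7% for the knock-down in vehicle and from 47.6% to 61.2% with doxorubicin.

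Ordered by normalized reads per kilobase of exon, CCND1 and then CDK4 led in every group. Their means were 2065 ± 106 and 1391 ± 272 per kilobase in siNT vehicle (SD, n = 3) and 1063 ± 54 and 855 ± 104 in siMLK4 doxorubicin cells, and their libraries overlapped only in siMLK4 vehicle cells. In siNT vehicle cells RB1, CDK6, CDKN1B, CCNA1 and CCND3 followed at 142 to 236 per kilobase, each overlapping the next, and CDKN2C came last at 60.4 ± 7.0. In siMLK4 doxorubicin cells CDKN2C was the third, at 519 ± 106 per kilobase, with no overlap with CDKN1B at 366 ± 8. The order depends on the length used. Per kilobase of the longest transcript, CDKN1B at 782 stood above CDKN2C at 539 in siMLK4 doxorubicin cells, CDK4 stood above CCND1 in both siMLK4 groups, and CCND3 at 342 stood above RB1 at 318 in siNT vehicle cells. CCNA1 went from 153 ± 53 per kilobase in siNT vehicle to last place in both siMLK4 groups, at 8.89 ± 3.37 with vehicle and 35.6 ± 6.0 with doxorubicin. In bulk RNA, fewer cells with a transcript and less of it per cell cannot be told apart.

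Genes with the most similar course were sought for each gene that passed in some comparison, by the smallest root mean square difference between log2 values centred over the 12 libraries, among 12380 genes with a mean of at least 50 normalized reads. For CCNA1 they were DUSP6, a phosphatase that inactivates ERK, at 0.24, SERPINE2, a protease inhibitor, at 0.25 and FST, which encodes follistatin, at 0.33. DUSP6 had log2 fold changes of −2.66 for the knock-down in vehicle, −1.13 with doxorubicin, and −0.29 and 1.24 for the drug in siNT and siMLK4 cells. For CDKN2C they were ADGRB2 at 0.18, the corepressor gene TLE4 at 0.22 and the histone gene H3C8 at 0.23. For CCND3 they were LENG1 at 0.091, ZNF200 at 0.10 and MGAT2, an enzyme of N-glycan synthesis, at 0.11. Over the 4 group means instead of the 12 libraries, DUSP6 and SERPINE2 stayed with CCNA1 and ADGRB2 and TLE4 with CDKN2C, SPRY4 and EFHD1 replaced the third gene of each, and VAMP4, WAC-AS1 and TBC1D12 replaced all those of CCND3.

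**Figure D3:**
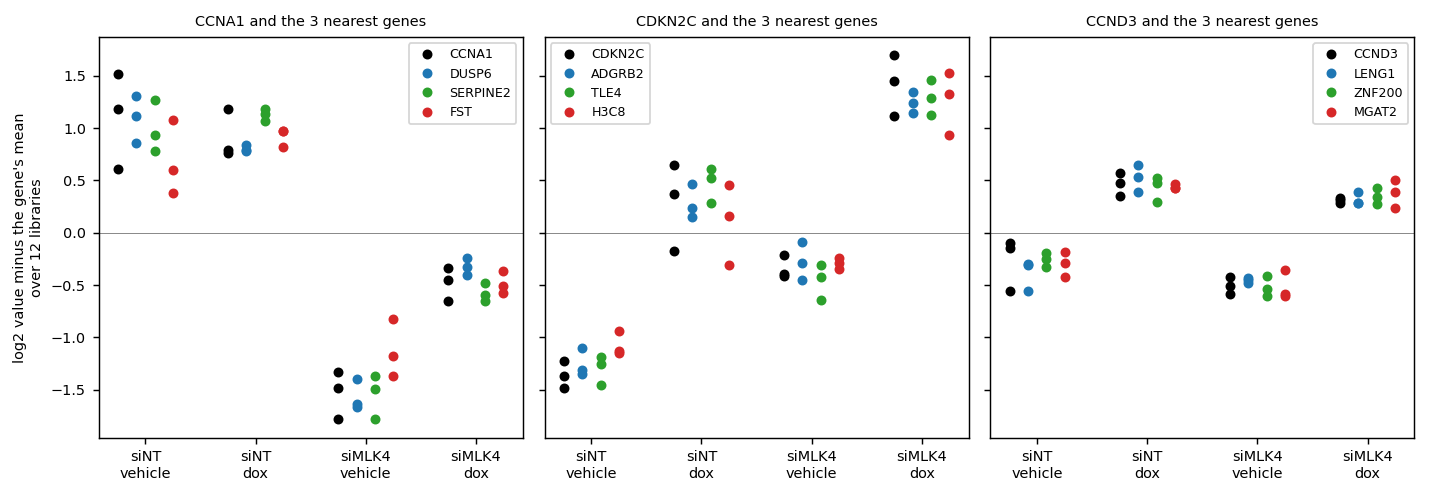
Log2 values minus the mean of each gene over the 12 libraries (vertical axis) for CCNA1, CDKN2C and CCND3 (black) and the 3 genes nearest to each (colours), with 1 point per library. The genes nearest to CCNA1 are low in both siMLK4 groups, and those nearest to CDKN2C are lowest in siNT vehicle and highest in siMLK4 doxorubicin cells.

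The wider G1/S machinery was read from a list of 32 other genes, of which 31 were measured and CDKN2A has no row in the table used here. Upon doxorubicin in siNT cells 6 of the 31 rose and 2 fell, beside 12.1% and 10.6% of all genes. E2F2, an activating E2F factor, rose by 1.35 (SE 0.15, adjusted p = 5.5e-06) and CCNE1, which encodes cyclin E1, by 1.22 (SE 0.17, adjusted p = 3.7e-05). SKP2, whose product targets p27 for degradation, fell by 1.50 (SE 0.11, adjusted p = 1.3e-07), from 2214 ± 255 to 745 ± 39 normalized reads (SD, n = 3). CDKN1A (p21), CDKN1C (p57), E2F1 and CCNE2 also rose and CCNA2, the cyclin A of dividing somatic cells, also fell. In siMLK4 cells 9 rose and 0 fell, beside 12.6% and 10.6% of all genes, led by E2F2 at 1.74, CDKN1A at 1.69 and CCNE1 at 1.46. The others were E2F1, E2F7, CDC25A, CDKN2D, E2F5 and E2F3. SKP2 was at −0.70 in siMLK4 cells (SE 0.11, adjusted p = 8.6e-05), short of the fold threshold. In siNT cells CCNA2 did not pass with library totals (−0.64), CCNE2 without siNT vehicle replicate 1 (0.68), or E2F1 when replicate 3 of siNT vehicle or replicate 1 of siNT doxorubicin was left out (0.67 each). In siMLK4 cells E2F3 did not pass without siMLK4 vehicle replicate 3 (0.71) or siMLK4 doxorubicin replicate 2 (0.68). The median of the 31 genes was 0.21 in siNT and 0.26 in siMLK4 cells.

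MLK4 knock-down in vehicle gave 2 of the 31 genes that rose and 4 that fell, beside 2.51% and 3.14% of all genes. CCNE2, which encodes cyclin E2, rose by 1.48 (SE 0.12, adjusted p = 2.1e-06), from 440 ± 70 to 1322 ± 174 normalized reads, and CCNE1 rose by 0.90. CDK7, the kinase that activates other CDKs, fell by 1.48 (SE 0.12, adjusted p = 2.3e-06) and MYC, which promotes the G1 to S passage, fell by 1.23 (SE 0.14, adjusted p = 3.5e-05). CDKN1A and the phosphatase gene CDC25A fell by 0.84 and 0.77. The calls of CCNE1, CDKN1A and CDC25A in vehicle were lost when only the groups compared entered the fit (adjusted p = 0.013, 0.035 and 0.018), and those of CDKN1A and CDC25A also with library totals (−0.70 and −0.64). CCNE1 did not pass without siMLK4 vehicle replicate 2 (0.76, adjusted p = 0.01013), CDKN1A without siNT vehicle replicate 1 (−0.64), siMLK4 vehicle replicate 1 (−0.73) or siMLK4 vehicle replicate 2 (−0.83, adjusted p = 0.01001), and CDC25A without siNT vehicle replicate 2 (−0.69) or siMLK4 vehicle replicate 3 (−0.65). With doxorubicin 5 rose, led by CCNE1 at 1.14, CCNE2 at 1.08 and E2F1 at 0.91 and including CDKN2D and E2F2, and 2 fell, MYC at −1.53 and CDK7 at −1.52, beside 2.66% and 2.93% of all genes. E2F2 was at 0.78 and did not pass without siNT doxorubicin replicate 3 (0.64), siMLK4 doxorubicin replicate 1 (0.78) or siMLK4 doxorubicin replicate 2 (0.68). Of the 9 genes of the list that passed upon knock-down, the 3′UTRs of CDK7 and MYC carry the letters of siMLK4_3, CCNE2 those of siMLK4_4, CDC25A those of siMLK4_2 and E2F2 those of siMLK4_1, and CCNE1, CDKN1A, E2F1 and CDKN2D carry none. The medians of the 31 genes were −0.09 in vehicle and 0.02 with doxorubicin, and 0 of the 31 passed in the difference between the drug responses. SKP2 was at 0.80 in that difference (SE 0.15, adjusted p = 0.020), past the fold threshold but not the p threshold.

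**Figure D4:**
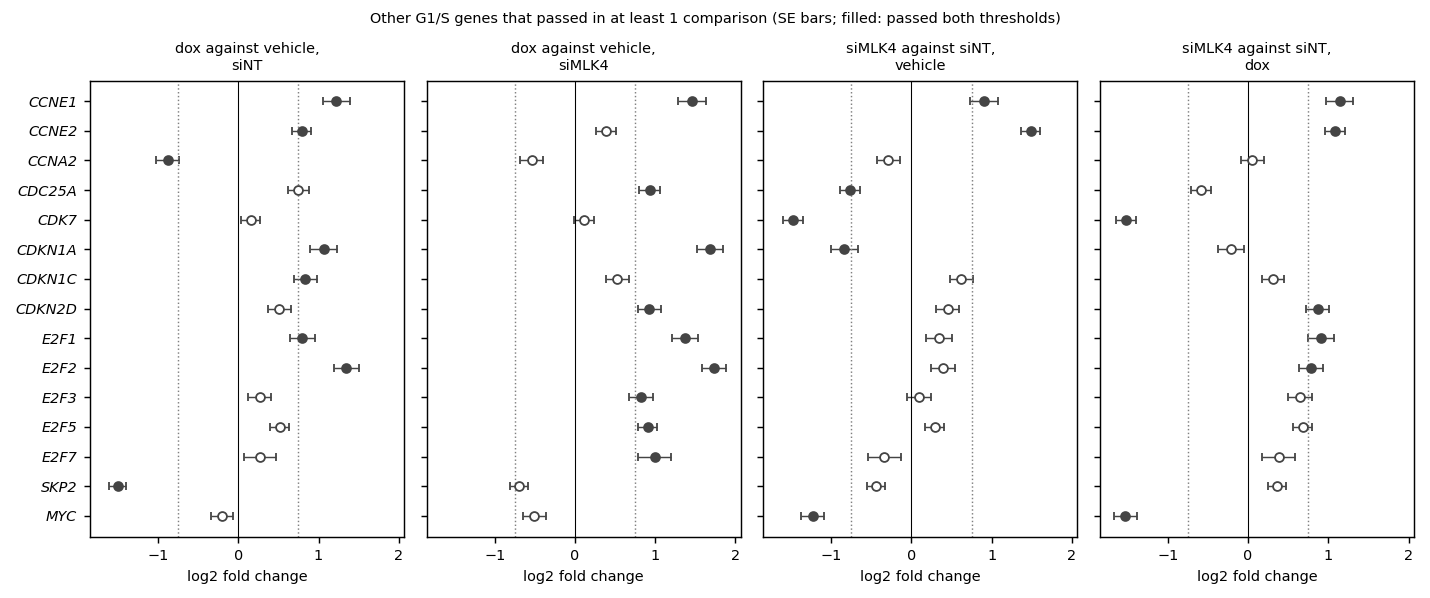
Log2 fold changes (horizontal axes) with SE of the 15 G1/S genes of the list that passed in at least 1 of the 4 comparisons, with filled points where both thresholds were passed and dotted lines at a size of 0.75. CCNE1 is filled in all 4 panels, and CDK7 and MYC are filled only in the siMLK4 against siNT panels.

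Of 15 E2F target genes that act in DNA replication, such as the MCM helicase genes and PCNA, 1 rose, TK1, which encodes thymidine kinase 1, by 0.76 upon doxorubicin in siMLK4 cells (SE 0.13, adjusted p = 2.0e-04). It did not pass without siMLK4 vehicle replicate 1 (0.70) or siMLK4 doxorubicin replicate 1 (0.74). None passed in the other comparisons. Over all genes 12.1% rose and 10.6% fell upon doxorubicin in siNT cells, and 12.6% and 10.6% in siMLK4 cells, with 2.51% and 3.14% upon knock-down in vehicle and 2.66% and 2.93% with doxorubicin. The medians of the 15 genes were 0.03 and 0.20 upon doxorubicin in siNT and siMLK4 cells and −0.15 and 0.05 upon knock-down in vehicle and with doxorubicin.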

How the data were processed

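Poly(A) RNA of 12 HCC1806 libraries in 4 groups was analysed from 1 table. According to the methods and the submitters' processing notes, reads were trimmed with Trimmomatic 0.39, mapped with HISAT2, freed of optical duplicates, counted per gene on the reverse strand with HTSeq 0.6.0 and processed with DESeq2 1.26.0. The methods name GRCh38 and the notes hg19. Coordinates given here are from GENCODE release 44 (GRCh38), and the table itself holds none. The authors deposited log2-like values, the output of a variance-stabilizing transformation. Inverting it gave whole reads for 100% of the values of every library (tolerance 0.05) and size factors from 0.852 to 1.199. The filter that left 17013 genes, of which 16957 could be annotated, is not given in the sources used here.

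Tests used limma 3.58.1 in R 4.3.3 (eBayes with a variance trend) on the deposited values, with all 12 libraries and 4 group means, adjustment over all 17013 genes, and calls at an adjusted p under 0.01 and a log2 fold change over 0.75. Shares were compared by exact permutation within treatment or siRNA. The code was tested on simulated data. Named are the 10 genes, MAP3K21, list genes called in a comparison and the 3 genes nearest in pattern to each called gene. E2F targets and markers named as examples, and PCNA, are outside that rule. The members, lists and tests were chosen with earlier results of these data known. Alternatives were library totals, limma-voom, log2(normalized reads + 1), at least 10 reads in every library, only the groups compared, a replicate block, an adjusted p under 0.05 without a fold threshold, and leaving out each library.

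Same-numbered libraries deviated together in some comparisons only. Correlations of their deviations from group means were 0.46, 0.11 and 0.20 across the drug comparison in siNT cells and 0.19, 0.52 and 0.56 between siRNAs with doxorubicin. For the drug in siMLK4 cells they were −0.08, 0.18 and 0.34, and between siRNAs in vehicle −0.72, 0.32 and −0.52. No label states this pairing. Shares of 50-base stretches found in other genes were 0.133% for CCND3, 0.117% for CDK4 and 0 for the other 6 genes.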

Additional observations from a re-analysis of the deposited data

How the results depend on the processing

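Among the 8 genes and the 16 list genes called in a comparison, no value past the thresholds changed direction. For the list genes, whose alternatives were added after seeing the data, 22 of 31 calls held under every alternative and 9 were lost under at least 1. Among the 8 genes, 7 gene and comparison values passed both thresholds under at least 1 alternative only. CCNA1 is not counted in the following tallies of these genes. Of the other 7 genes, 1 passed for doxorubicin in siNT cells. This became 3 with library totals, 2 with limma-voom, 2 on log2(normalized reads + 1), 6 when an adjusted p under 0.05 alone was asked, and 1 to 3 when each library was left out in turn. Without a fold threshold the counts for doxorubicin in siMLK4 cells and for siMLK4 against siNT in vehicle were 4 of 7 and 3 of 7, against 2 and 1. For the knock-down with doxorubicin, CCND1 and CDKN1B then passed besides CDKN2C. Leaving out each library gave 1 to 2 for the knock-down in vehicle. Over all genes, an adjusted p under 0.05 alone gave 9745 and 9858 for doxorubicin in siNT and siMLK4 cells (3859 and 3949 with the fold threshold). It gave 4381 and 4219 for the knock-down in vehicle and with doxorubicin (961 and 950), and 204 for the difference between the drug responses (47). Limma-voom gave 1483, 1466 and 29 for these last 3 comparisons. For the knock-down in vehicle, log2(normalized reads + 1) gave 1613 and the fit of only the groups compared gave 611. The difference between the responses gave 0 to 37 genes when each library was left out, with 0 in the absence of siMLK4 doxorubicin replicate 1. The causes were not tested. The replicate block changed no call of these genes, and with it 3854, 3937, 951 and 945 genes were called in the 4 comparisons and 40 in the difference between the responses. The 12 to 25 reads of CCNA1 in siMLK4 vehicle libraries limit the precision of its fold change there.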
